A study of Mus musculus with 2 samples.

Results

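The antioxidant genes described here were Txnrd1, Srxn1, Prdx1, Slc7a11, Gclm, Gclc, Gsr, Hmox1, Nqo1 and Nfe2l2. They were chosen by their symbols, and each symbol matched 1 of the 32285 genes in the count table, giving 10 genes in all. The study asked how Omacs, the macrophages that lie on bone surfaces, differ in a model of postmenopausal osteoporosis, and took them from femurs and vertebrae of pooled female BALB/c mice that were operated on at 10 weeks of age and killed 4 weeks later. The groups were bilaterally ovariectomized (OVX) mice and sham-operated (sham) mice, neither of which is described as carrying a transgene or receiving a drug. The bone was digested with trypsin and then overnight with collagenase, and the cells were sorted with antibodies to CD11b, F4/80 and CD68. Cells of OVX mice carried hashtag 1 and cells of sham mice hashtag 2, and both were run together in 1 droplet library that counts captured RNA molecules at their 3′ ends through unique molecular identifiers (UMIs). Each condition was a single pool of mice, which leaves the OVX and sham values without a test. Every interval below is a 95% interval for the counting of molecules, or of cells for shares of cells, and the spread from mouse to mouse is not part of it. The intervals of levels and ratios also leave out the spread from cell to cell.

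Cells remove peroxides through the thioredoxin and the glutathione systems, both of which draw their electrons from NADPH. The transcription factor NRF2, encoded by Nfe2l2, is held at a low level by KEAP1 and is stabilized when oxidants or electrophiles modify KEAP1. It then binds antioxidant response elements together with small MAF proteins and induces genes of both systems along with heme and quinone detoxification, whereas BACH1 represses many of the same genes. In neutrophils and macrophages these enzymes limit the damage caused by the oxidants that the cells produce for killing microbes.

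The library held 2349 barcodes, none of them repeated, with a median of 4387 UMIs each. HTODemux, which calls hashtags from their background distribution, assigned 1059 cells to OVX and 981 to sham, and left out 78 barcodes above the cutoffs of both hashtags and 231 above neither. Louvain clustering, run without the 10 genes and the other antioxidant pathway genes, gave 6 clusters. A cluster of 210 cells led by Prg4, Saa1, Ccn2 and Dcn is called stromal-like, and all 10 stromal markers were detected in it at a summed level of 43715 UMIs per 1000000 (CPM) against 197 CPM in the neutrophil-like cells. Prg4 at 25948 CPM and Dcn at 16513 CPM made up most of this sum, whereas Col1a1, Col1a2 and Col3a1 stood at 17.0 to 42.6 CPM. The 4 listed chondrocyte markers, Acan, Col2a1, Sox9 and Chad, summed to 3302 CPM in these cells against 19.8 CPM in the neutrophil-like cells. Another 4 clusters, 2058 cells in all, are called neutrophil-like, with 13 of 13 neutrophil markers detected at a summed 292070 CPM in the 4 clusters and at 3881 CPM in the stromal-like cells. The last cluster, 81 cells led by Pf4, Ppbp, Arg1 and genes of the MHC class II, is called Arg1-high. The labels call the cells macrophages, but C1qa, C1qb and C1qc had no UMI in the stromal-like or neutrophil-like cells. In the Arg1-high cells C1qa and C1qb stood at 1.02 CPM each and C1qc at 0. Adgre1, which encodes F4/80, stood at 0 CPM in the former, 2.40 CPM in the latter and 66.5 CPM in the Arg1-high cells.

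Depth and hashtag labeling differed between these cells. The stromal-like cells had a median of 19996.5 UMIs and the neutrophil-like cells 3889.5. Of the 210 stromal-like cells, 53.3% passed neither hashtag cutoff, which left 38 OVX and 54 sham cells, against 1000 and 874 neutrophil-like cells. Markers were also counted in the cells they do not mark, where free RNA can add UMIs, and its part was not tested. The 6 stromal markers at 100 CPM or more in stromal-like cells stood at 0.237% to 1.06% of that level in the neutrophil-like cells, while the 13 neutrophil markers stood at 0.656% to 47.9% of their neutrophil-like level in the stromal-like cells (median 1.18%), with Lcn2 at 47.9% and Camp at 28.1%. Dcn stood at 92.3 CPM in the neutrophil-like cells, which was 0.559% of its stromal-like level, and Cxcr2 at 17.9 CPM in the stromal-like cells, which was 1.18% of its neutrophil-like level.

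The NRF2 response acts through short promoter elements, so the promoters of the genes were searched for the core of the antioxidant response element, spelled TGACNNNGC on either strand, in windows from 250 bases before to 50 bases after each start site (RefSeq, GRCm38.p6). Windows were given for 7 of the 10 genes, and 5 of these 7 (71.4%) held the core, against 14% of all 27025 genes and 10 of the 48 other antioxidant pathway genes (20.8%). Counted by window, 5 of 9 (55.6%) held it, against 12.4% of all windows. The genes were chosen as thioredoxin and NRF2 antioxidant genes, so the larger share is no separate finding about them. The stretches below show the core in capitals for the genes with a match before the start site. They belong to genes that differ in direction between cell types, since Txnrd1 and Prdx1 were higher and Gclm lower in the stromal-like cells.
Txnrd1 promoter: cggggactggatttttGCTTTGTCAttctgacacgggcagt
Gclm promoter: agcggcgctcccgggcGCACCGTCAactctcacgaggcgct
Prdx1 promoter: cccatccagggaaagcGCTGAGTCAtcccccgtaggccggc
Nfe2l2 promoter: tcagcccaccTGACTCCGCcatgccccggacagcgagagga
The Txnrd1 stretch is chr10:82859098-82859138 on the plus strand, at the second of 3 start sites, and its core begins 92 bases before that start. The Gclm stretch is chr3:122245407-122245447 on the plus strand, with the core 134 bases before the start. The Prdx1 stretch is chr4:116685450-116685490 on the plus strand, and its core, 133 bases before the start, also contains the AP-1 motif TGACTCA on the other strand. The Nfe2l2 stretch is chr2:75704873-75704913 on the minus strand, with the core 240 bases before the start. The Srxn1 match lay after the start site, and the windows of Slc7a11 and Nqo1 held no match, which says only that these letters are not in these windows.

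The 10 genes differed in both directions between the stromal-like and neutrophil-like cells. Txnrd1, Srxn1 and Prdx1, which belong to the thioredoxin system, stood 2.37- to 3.0-fold higher in the stromal-like cells, whereas Slc7a11, Gclm and Gsr, which supply and recycle glutathione, stood lower in them, at 0.0442 to 0.300 of their level in the neutrophil-like cells. These ratios have to be read against all genes. The UMIs of the neutrophil-like cells are dominated by a few transcripts (S100a9 alone stood at 150276 CPM), and over the 8518 genes that reached 10 CPM in one group or the other, the median log2 ratio of stromal-like to neutrophil-like CPM was 1.12. At 2-fold or more, 52.4% of all these genes were higher in the stromal-like cells and 19.5% lower, compared with 3 and 3 of the 10 antioxidant genes, whose median log2 ratio was 0.31. The share of higher genes among the 10 was thus below that of all genes, and Txnrd1, Srxn1 and Prdx1 lay close to the middle of all genes, while Slc7a11, Gclm and Gsr lay between the 6.0th and the 14.4th percentile.

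Among the thioredoxin genes, Txnrd1 encodes the cytosolic thioredoxin reductase, which returns oxidized thioredoxin to its reduced form with NADPH. Its position in GRCm38 is chromosome 10, bases 82833951 to 82897712, on the plus strand, where Eid3 overlaps it on the same strand. Txnrd1 stood at 620.0 CPM in the stromal-like cells (95% interval 599 to 641) and at 262 CPM in the neutrophil-like cells, a ratio of 2.37 (2.25 to 2.49) that was at the 52.0th percentile of all genes. Srxn1 encodes sulfiredoxin, which repairs overoxidized peroxiredoxins, and lies on chromosome 2 from 152105516 to 152111376 (plus strand). It stood at 214 and 71.3 CPM, a ratio of 3.0 (2.74 to 3.28) at the 56.9th percentile. Prdx1 encodes a cytosolic peroxiredoxin that thioredoxin keeps reduced, and lies on chromosome 4 from 116685544 to 116700822 (plus strand). It stood at 546 and 224 CPM, a ratio of 2.44 (2.31 to 2.57) at the 52.6th percentile. In all 3 genes the intervals of the 2 cell groups did not overlap, but with counts scaled by the median of ratios over genes at 100 CPM or more, which lowers every log2 ratio by 0.97, their log2 ratios were between 0.27 and 0.62 and none was 2-fold higher.

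Of the glutathione genes, Slc7a11, Gclm and Gsr showed the opposite order and Gclc did not. Slc7a11 encodes the transport subunit of the cystine/glutamate exchanger, which brings in the cystine from which glutathione is made, and lies on chromosome 3 from 49892526 to 50443614 (minus strand), overlapped by Gm37692 and Gm37498. It stood at 44.9 CPM (39.5 to 50.9) in the stromal-like cells and at 1017 CPM in the neutrophil-like cells, a ratio of 0.0442 (0.0388 to 0.0501) at the 6.0th percentile of all genes. Its stromal-like level was 4.42% of its neutrophil-like level, compared with 1.18% for Cxcr2 and up to 47.9% for the neutrophil markers, and whether free RNA contributed to it was not tested. Gclm encodes the modifier subunit of glutamate-cysteine ligase, the rate-limiting enzyme of glutathione synthesis, and lies on chromosome 3 from 122245557 to 122270732 (plus strand), overlapped by Gm6061. It stood at 227 CPM and 977 CPM, a ratio of 0.232 (0.219 to 0.246). Gclc encodes the catalytic subunit of the same enzyme and lies on chromosome 9 from 77754535 to 77794485 (plus strand). Unlike its partner, it was not lower in the stromal-like cells, at 45.9 CPM against 26.4 CPM, a ratio of 1.74 (1.46 to 2.07). Gsr encodes glutathione reductase, which returns oxidized glutathione to its reduced form with NADPH, and lies on chromosome 8 from 33652523 to 33698163 (plus strand), overlapped by Gm24727. It stood at 57.7 CPM and 192 CPM, a ratio of 0.300 (0.266 to 0.338). Slc7a11, Gclm and Gsr remained lower in the stromal-like cells under the other scaling as well, at log2 ratios of -5.47, -3.07 and -2.70.

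The remaining genes differed less between the cell groups. Hmox1 encodes heme oxygenase 1, which breaks heme down to biliverdin, iron and carbon monoxide, and lies on chromosome 8 from 75093621 to 75100589 (plus strand). It stood at 1362 CPM in the stromal-like and 996 CPM in the neutrophil-like cells, a ratio of 1.37 (1.33 to 1.41). Nfe2l2 itself, on chromosome 2 from 75675513 to 75704641 (minus strand) and overlapped by Gm24996, stood at 128 and 114 CPM, a ratio of 1.12 (1.02 to 1.23). Nqo1 encodes a quinone reductase that uses NADPH or NADH, and lies on chromosome 8 from 107388225 to 107403206 (minus strand). It stood at 32.0 and 35.9 CPM, a ratio of 0.891 (0.742 to 1.07) whose interval included 1, and with the median of ratios its log2 ratio was -1.13 and 4 genes in place of 3 were 2-fold or more lower in the stromal-like cells. The direction of Hmox1, Gclc and Nfe2l2 depended on the scaling, since their log2 ratios of 0.45, 0.80 and 0.17 became -0.52, -0.17 and -0.80 with the median of ratios, and that of Nfe2l2 was also -0.20 with each cell weighted equally.

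**Figure D1:**
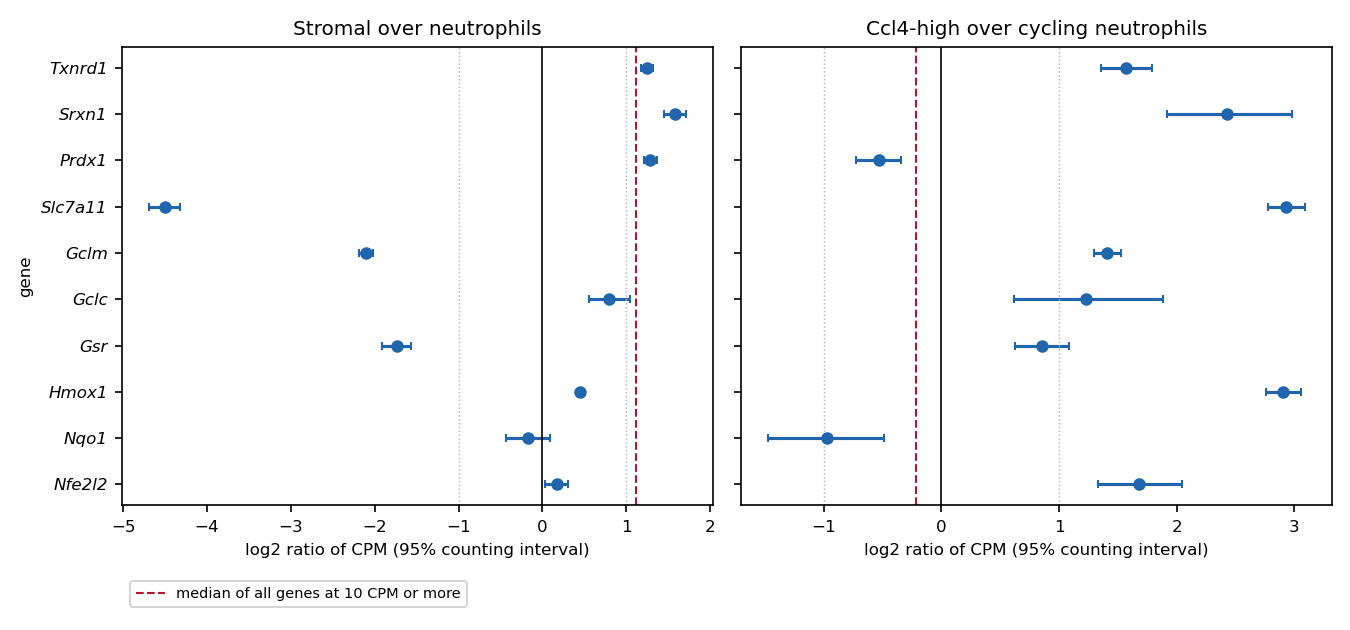
Log2 ratio of CPM (x axis) for the 10 antioxidant genes (y axis), for stromal-like over neutrophil-like cells on the left and for Ccl4-high over cycling neutrophil-like cells on the right. Points are ratios of summed UMIs, horizontal lines are 95% counting intervals, dotted lines mark 2-fold and the dashed red line is the median of all genes at 10 CPM or more (1.12 on the left, -0.21 on the right). On the left Slc7a11, Gclm and Gsr sit far below that median, and on the right Slc7a11, Hmox1 and Srxn1 sit farthest above it.

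The same comparison was made within each hashtag condition. Slc7a11 stood at 54.9 CPM in stromal-like against 1014 CPM in neutrophil-like cells of OVX mice (ratio 0.0541) and at 58.6 against 1064 CPM in sham mice (ratio 0.0551). Gclm had ratios of 0.232 in OVX and 0.321 in sham cells, and Gsr 0.371 and 0.339, so these 3 genes were lower in the stromal-like cells of either pool. Txnrd1 had a ratio of 1.88 (1.71 to 2.06) in OVX and 2.90 (2.68 to 3.14) in sham cells, and Prdx1 1.88 (1.71 to 2.07) and 3.11 (2.84 to 3.41). The intervals of the pools did not overlap for either gene, but they leave out the spread between the 38 OVX and 54 sham stromal-like cells. Whether the pools differ was not tested. For Nqo1 the ratio was 1.25 (0.855 to 1.79) in OVX and 0.633 (0.458 to 0.861) in sham cells.

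Because the stromal-like cells were deeper, detection was compared after each cell was thinned to 1000 UMIs, which left out 12 of 210 stromal-like and 157 of 2058 neutrophil-like cells. Slc7a11 then had a UMI in 3.54% of stromal-like cells (1.43 to 7.15) and 59.9% of neutrophil-like cells, where the unthinned shares were 45.7% and 85.1%. At this depth the neutrophil marker Cxcr2 had a UMI in 2.02% of stromal-like cells and the stromal marker Dcn in 10.5% of neutrophil-like cells. Without thinning these shares were 23.8% and 36.0%. Whether free RNA contributed to the Slc7a11 share in stromal-like cells was not tested. Gsr was detected in 2.53% of the stromal-like and 18.7% of the neutrophil-like cells, and Gclm in 17.7% and 57.9%. Txnrd1 showed the reverse order, at 41.4% (34.5 to 48.6) and 26.2% (24.2 to 28.2), as did Prdx1 at 39.9% and 16%. Nfe2l2 was found in more stromal-like cells without thinning (73.3% against 38.8%) and in fewer with it (8.08% against 13.7%).

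Among single stromal-like cells with 2000 UMIs or more (190 cells), the genes differed in how widely they were spread. Txnrd1 had a median of 474 CPM with quartiles at 265 and 831, and 4.74% of the cells had no UMI. Slc7a11 had a median of 5.42 CPM with 50% of the cells at 0, whereas in the 500 Ccl4-high cells of that depth its median was 1412 CPM and 7.20% were at 0.

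Within the neutrophil-like cells, most of the 10 genes were lowest in the proliferating cluster and highest in the cluster with the most mature markers. The clusters were named by their leading genes as cycling (171 cells, Top2a and Mki67), granule-rich (530 cells, Ngp and Olfm4), stefin-high (632 cells, Stfa2 and Wfdc21) and Ccl4-high (725 cells, Ccl4 and Hcar2). The summed secondary and tertiary granule genes stood at 31635 CPM in the cycling, 25129.5 in the granule-rich, 9394 in the stefin-high and 5148 in the Ccl4-high cells, and the summed mature neutrophil genes at 1283, 3616, 8003 and 9603.5 CPM. The granule-rich cells were thus not the richest in granule genes, and Ngp itself stood at 16061 CPM in cycling and 12638 CPM in granule-rich cells. Ltf, Camp, Ngp, Lcn2, Chil3 and Cd177 were lower in Ccl4-high than in cycling cells. The listed Ly6g and Mmp8 went the other way, from 182 to 1248 CPM and from 93.5 to 1246 CPM. The order used below follows these markers and is not a measured time course. The levels by cluster sum both pools. Stefin-high cells were 552 OVX and 55 sham cells, and Ccl4-high cells 179 and 484. From cycling to Ccl4-high cells, 7 of the 10 genes were 2-fold or more higher and 0 lower, compared with 18.8% and 33.3% of the 6735 genes that reached 10 CPM in one of these clusters. The median log2 ratio was 1.49 for the 10 genes and -0.21 for all genes. The background depended on the level of the genes compared, since among the 1568 genes at 100 CPM or more 35.8% were higher and 20.7% lower, and 6 of the 8 antioxidant genes at that level were higher and 0 lower.

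In this clustering Slc7a11 and Hmox1 had the widest range of the 10 genes over the neutrophil-like clusters. Slc7a11 stood at 227 CPM in cycling, 744 in granule-rich, 1119 in stefin-high and 1738 in Ccl4-high cells, a ratio of Ccl4-high to cycling cells of 7.64 (6.86 to 8.53). Hmox1 stood at 262, 727, 951 and 1964 CPM in the same order, a ratio of 7.50 (6.79 to 8.31). In stefin-high and Ccl4-high cells Hmox1 was at 954 and 1117 CPM in the OVX pool, and at 1016 and 2308 CPM in the sham pool. In both genes no neighboring clusters had overlapping intervals, and the ratios were at the 98.0th and the 97.9th percentile of all genes. Srxn1 stood at 21.8, 64.4, 70.5 and 118 CPM, where the granule-rich and stefin-high intervals overlapped, and its ratio was 5.39 (3.78 to 7.91). Nfe2l2 stood at 51.7, 94.3, 124 and 166 CPM, with 4 separate intervals and a ratio of 3.21 (2.52 to 4.12). Nfe2l2 thus had the same order over these clusters as Slc7a11, Hmox1 and Srxn1. The transcript of the repressor, Bach1, had this order too, at 65.4, 211, 252 and 370 CPM. Pearson correlations of Nfe2l2 were also taken over 12 groups of cluster by condition, stromal-like and Arg1-high cells included. They were 0.09 with Slc7a11, 0.36 with Hmox1 and 0.63 with Srxn1. Whether the level of Nfe2l2 bears on that of the other genes was not tested.

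Txnrd1 had a similar but narrower range, at 134, 210.1, 274 and 398 CPM, a ratio of 2.97 (2.56 to 3.46). Gclm stood at 476, 761, 1154 and 1266 CPM, a ratio of 2.66 (2.45 to 2.88), and Gclc at 18.1, 20.8, 24.9 and 42.5 CPM, a ratio of 2.35 (1.54 to 3.70). For Gclc only the Ccl4-high cells stood apart, since the intervals of the other 3 clusters overlapped. Gsr stood at 139.6, 153, 207 and 252 CPM, a ratio of 1.81 (1.54 to 2.12) that did not reach 2-fold. Prdx1 and Nqo1 did not share this order. Prdx1 stood at 291 CPM in cycling, 147 in granule-rich, 261 in stefin-high and 201 in Ccl4-high cells. Its direction differed between the pools. In cycling and Ccl4-high cells it was at 214 and 276 CPM in the OVX pool, and at 390 and 179 CPM in the sham pool. Nqo1 stood at 53.6 and 51.4 CPM in cycling and granule-rich cells, with overlapping intervals, and at 23.6 and 27.3 CPM in stefin-high and Ccl4-high cells, giving a ratio of 0.509 (0.360 to 0.715).

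The scaling, the clustering and the barcodes included bear on these values. With the barcode filter (500 genes or more, mitochondrial UMIs of 10% or less), the log2 ratio of Ccl4-high to cycling cells was 2.52 for Slc7a11, 2.0 for Hmox1 and -2.66 for Nqo1, where it was 2.93, 2.91 and -0.97 with all barcodes. With pathway genes allowed in the clustering it was 1.99 for Hmox1. With the median of ratios, which lowers each log2 ratio by 0.57 here, 4 of the 10 genes were 2-fold or more higher in Ccl4-high cells (Slc7a11, Hmox1, Srxn1 and Nfe2l2) and 2 lower (Prdx1 and Nqo1). Txnrd1 fell just short, at a log2 ratio of 0.996. The shift is the same for every gene, so the place of the 10 genes among all genes does not change. The shares of all genes at 2-fold were not counted under this scaling. Other clusterings drew the boundaries between neutrophil-like clusters differently, with an adjusted Rand index of 0.352 to 0.400 against the one reported, and the direction for Prdx1 was the same in 3 of 7 alternatives while that of the other 9 genes was the same in 7 of 7.

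**Figure D2:**
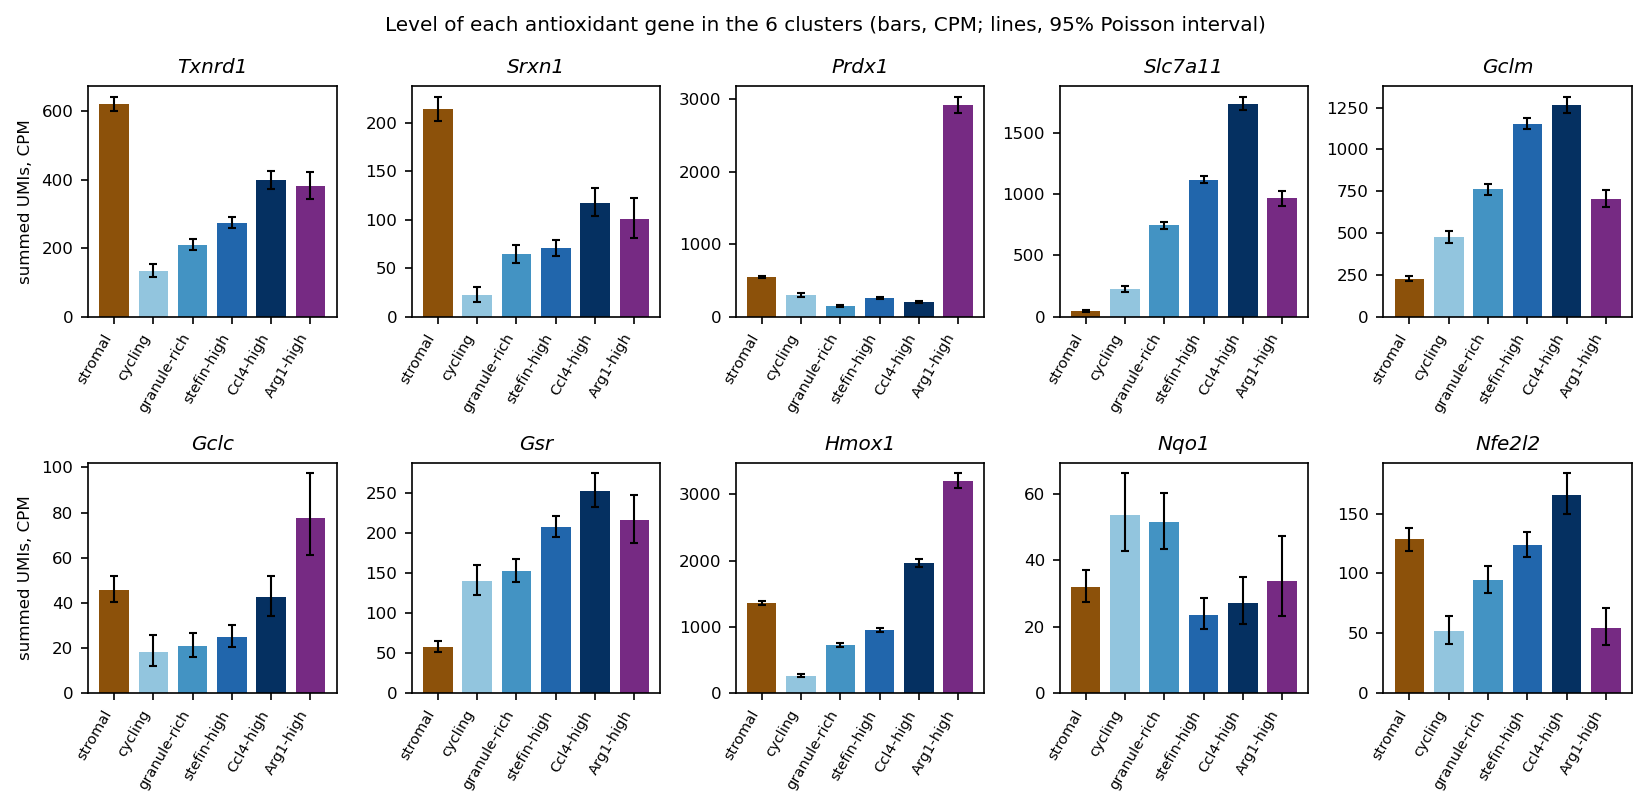
Level of each gene in CPM (y axis, from 0) in the stromal-like, 4 neutrophil-like and Arg1-high clusters (x axis). Bars are summed UMIs scaled to CPM and lines are 95% Poisson intervals. Txnrd1 and Srxn1 were highest in the stromal-like cells, Slc7a11, Gclm, Gsr and Nfe2l2 in the Ccl4-high cells, and Prdx1, Hmox1 and Gclc in the Arg1-high cells.

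The Arg1-high cells had a profile of their own. Prdx1 stood at 2918 CPM (2812 to 3028) in these 81 cells against 224 CPM in the neutrophil-like cells, a ratio of 13.1 (12.4 to 13.8) at the 93.5th percentile of 7819 genes, and 51.3% of its UMIs came from 10 cells. Hmox1 stood at 3203 CPM, a ratio of 3.22 (3.09 to 3.35), and Gclc at 77.7 CPM, a ratio of 2.95 (2.26 to 3.81). These 2 ratios were nearer the middle of all genes, at the 67.4th and the 64.9th percentile. Nfe2l2 was lower than in the neutrophil-like cells, at 54.2 CPM (40.6 to 70.9), a ratio of 0.475 (0.353 to 0.625). Thus 3 of the 10 genes were 2-fold or more higher and 1 lower, against a background of 48.1% and 9.89% of all genes, so the higher genes were fewer than among all genes. Slc7a11, at 965 CPM, differed from its neutrophil-like level by less than its counting error, with a ratio of 0.949 (0.887 to 1.01). Macrophage markers moved with this profile, since the 10 listed macrophage markers summed to 710 CPM here and to between 46.0 and 102 CPM in the neutrophil-like clusters, with C1qc and Vcam1 at 0. Other lists did too. The platelet genes Pf4 and Ppbp brought the megakaryocyte or platelet list to 4192 CPM against 6.14 CPM in the neutrophil-like cells, with Itga2b and Gp9 at 0. The dendritic list stood at 497 against 9.26 CPM. H2-Ab1, a gene of the MHC class II, made up 481 CPM of that sum, with Xcr1 and Siglech at 0. The primary granule list stood at 252 against 12.9 CPM and the monocyte list at 248 against 60.5 CPM. Within the monocyte list Ly6c2 went the other way, at 37.8 against 53.7 CPM. The stromal-like cells had more of the monocyte list than the Arg1-high cells, at 303 CPM, of which F13a1 made up nearly all. The part of these lists in the antioxidant levels was not tested.

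To examine the effect of ovariectomy, OVX and sham cells were compared inside the neutrophil-like cells. Hmox1 and Nqo1 were lower in the OVX pool, and the other 8 genes differed by less than 1.5-fold. The level of Hmox1 was 817 CPM in neutrophil-like cells of OVX mice and 1301 CPM in those of sham mice, a ratio of 0.628 (0.605 to 0.653) at the 5.70th percentile of 5681 genes. Nqo1 stood at 24.1 CPM (151 UMIs) and 51.2 CPM (213 UMIs), a ratio of 0.471 (0.380 to 0.583) at the 0.863rd percentile. At 1.5-fold or more, 0 of the 10 genes were higher and 2 lower in OVX cells, whereas 6.90% of all genes were higher and 8.04% lower. At 2-fold or more these were 0 and 1 of the 10, the 1 being Nqo1, against 2.71% and 1.30% of all genes. Of the remaining genes, Srxn1 stood at 65.2 and 80.6 CPM (ratio 0.809), Nfe2l2 at 111 and 123 (0.904), Txnrd1 at 255 and 281 (0.908), Slc7a11 at 1014 and 1064 (0.953), Gclc at 26.8 and 27.4 (0.979), Gclm at 1012 and 945 (1.07), Gsr at 199.9 and 184 (1.09) and Prdx1 at 240.2 and 208 CPM (1.16). The intervals of Gclc, Gsr and Nfe2l2 included 1. The direction of Prdx1 was the same in 8 of 12 alternatives, and its log2 ratio of 0.21 became -0.35 with pathway genes allowed in the clustering and -0.04 with clusters weighted equally. Gclm kept its direction in 7 of 12, Slc7a11 in 8 of 12 and Gclc in 4 of 12.

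The pools differed in the make-up of their neutrophil-like cells. Stefin-high cells were 55.2% of the OVX and 6.29% of the sham neutrophil-like cells, and Ccl4-high cells 17.9% and 55.4%. The comparison was therefore repeated inside each cluster, and Hmox1 and Nqo1 were lower in OVX cells in 4 of 4 clusters. For Hmox1 the OVX and sham levels were 189 and 337 CPM in cycling cells (ratio 0.561, 0.453 to 0.694), 593 and 801 in granule-rich cells (0.739, 0.669 to 0.817), 954 and 1016 in stefin-high cells (0.939, 0.843 to 1.05), and 1117 and 2308 in Ccl4-high cells (0.484, 0.443 to 0.528). The ratio was lowest in Ccl4-high cells and its interval included 1 in stefin-high cells. For Nqo1 they were 44.0 and 55.1 CPM (0.798, 0.486 to 1.31), 26.8 and 69.2 (0.387, 0.242 to 0.598), 19.9 and 54.9 (0.362, 0.219 to 0.624), and 22.3 and 30.01 CPM (0.745, 0.359 to 1.43) in the same order of clusters. These rest on few molecules, from 12 to 110 UMIs a group, and the intervals of the cycling and Ccl4-high cells included 1. With clusters weighted equally the ratios were 0.659 for Hmox1 and 0.537 for Nqo1.

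Other genes went in different directions in different clusters. In cycling cells, 5 genes were 1.5-fold or more lower in the OVX pool, with ratios of 0.547 for Prdx1, 0.561 for Hmox1, 0.610 for Gclm, 0.647 for Nfe2l2 and 0.664 for Txnrd1. The interval of Nfe2l2 (0.396 to 1.05) included 1. Among all 6960 genes of this cluster 19.5% were lower and 13.3% higher at 1.5-fold, where 0 of the 10 genes were higher. In stefin-high cells the ratios of Gclm (1.36, 1.21 to 1.52), Slc7a11 (1.30, 1.16 to 1.47), Prdx1 (1.32, 1.04 to 1.69) and Gsr (1.38, 1.05 to 1.84) were above 1, where the sham pool contributed only 55 cells. These ratios were not far from those of all 5507 genes of the cluster, of which 25.6% were 1.5-fold or more higher and 15.1% lower with a median log2 ratio of 0.12, and the 4 genes lay between the 64.9th and the 69.0th percentile. None of the 10 genes was 1.5-fold higher and Nqo1 was lower. Slc7a11 was also higher in OVX cells of the granule-rich cluster, at 871 against 683 CPM (1.28, 1.16 to 1.40), and lower in the Ccl4-high cluster, at 1555 against 1849 CPM (0.841, 0.778 to 0.909).

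**Figure D3:**
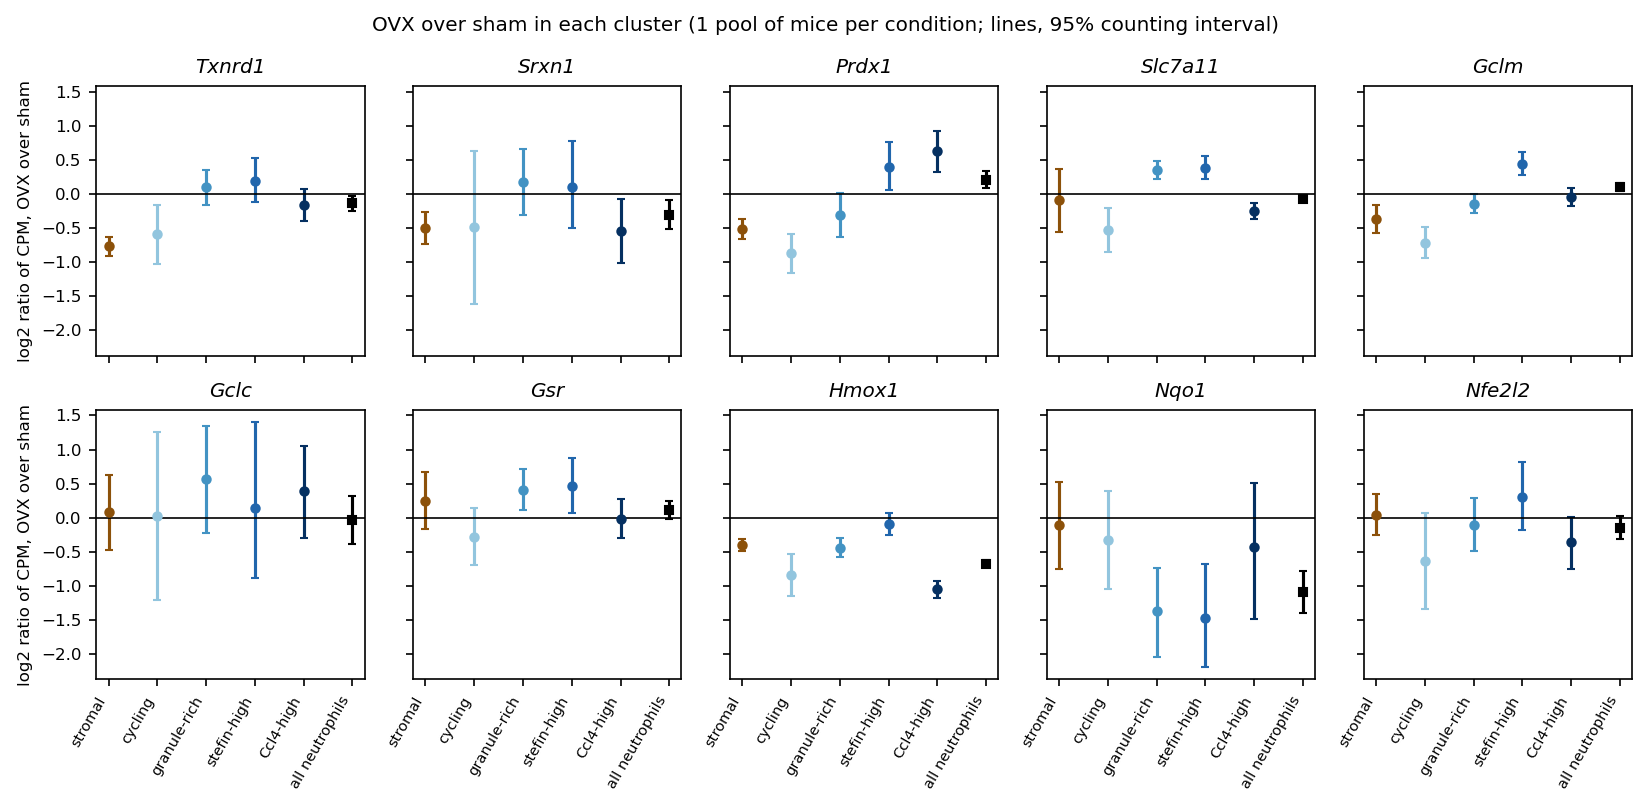
Log2 ratio of CPM in OVX over sham cells (y axis) for each gene in the stromal-like cells, the 4 neutrophil-like clusters and all neutrophil-like cells (x axis). Points are ratios of the 1 OVX and 1 sham pool, squares are all neutrophil-like cells together and vertical lines are 95% counting intervals. Hmox1 and Nqo1 lie below 0 in every group shown, whereas Slc7a11, Gclm and Prdx1 lie on both sides of 0.

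In the stromal-like cells Txnrd1 was the 1 gene that was 1.5-fold or more lower in the OVX pool. It stood at 479 CPM (442 to 518) in the OVX pool, with 38 cells, and at 814 CPM in the sham pool, with 54 cells, a ratio of 0.589 (0.534 to 0.648) at the 6.04th percentile of 8040 genes. Prdx1 stood at 452 and 646 CPM, a ratio of 0.699 (0.631 to 0.775), and Srxn1 at 189 and 267 CPM, a ratio of 0.706 (0.601 to 0.828). Hmox1 followed at 1217 and 1603 CPM, a ratio of 0.759 (0.712 to 0.808), and Gclm at 235 and 303 CPM, a ratio of 0.775 (0.669 to 0.896). The ratios of Gclc (1.06), Nqo1 (0.929), Slc7a11 (0.936), Gsr (1.19) and Nfe2l2 (1.03) had intervals that included 1. At 1.5-fold or more, 0 of the 10 genes were higher and 1 lower, against 9.25% and 11.1% of all genes, so the share among the 10 was close to the background. At 2-fold, 0 of the 10 genes differed in either direction, against 3.46% of all genes higher and 3.05% lower.

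A few cells carried much of these stromal-like levels. The 10 cells with the most Txnrd1 held 70.6% of its UMIs in the OVX and 53.7% in the sham pool, and after thinning to 1000 UMIs 26.3% of the OVX cells (13.4 to 43.1) had a Txnrd1 UMI, against 44.4% in the sham pool (30.9 to 58.6), and the intervals overlapped. The thinned shares of Prdx1 (42.1% and 37.0%) and Srxn1 (18.4% and 14.8%) went against their CPM, and no order is read from them. Under the rule that gives a barcode to the hashtag with at least 80% of its hashtag UMIs, 28 OVX and 113 sham cells had Txnrd1 at 497 and 743 CPM, and no gene reached 1.5-fold. Txnrd1 fell just short of it, at a log2 ratio of -0.581, and was lower in the OVX pool in 7 of 7 alternatives. For Gclm the levels were then 248 and 249 CPM.

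Summing all cells gave different ratios than either cell group. The summed OVX cells had 314 CPM of Prdx1 and the summed sham cells 672 CPM, a ratio of 0.467 (0.444 to 0.491), while it was 1.16 in the neutrophil-like cells and 0.699 in the stromal-like cells. The 21 Arg1-high cells of OVX mice had 1461 CPM and the 53 of sham mice 3479.5 CPM, a ratio of 0.420 (0.375 to 0.469), where 10 cells held 86.1% of the OVX and 58.0% of the sham UMIs. Hmox1 had a ratio of 0.656 (0.596 to 0.720) in these cells.

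The wider antioxidant pathway was counted from 6 lists with 52 further genes, of which 45 were at 10 CPM or more in stromal-like or neutrophil-like cells. Of these, 19 were 2-fold or more higher and 16 lower in the stromal-like cells, and their median log2 ratio was 0.04 against 1.12 for all genes. Among all genes 52.4% were higher and 19.5% lower, so the share of higher genes was smaller in these lists and that of lower genes larger. Counted with the 10 genes, the thioredoxin and peroxiredoxin list had 7 of 11 genes higher and 2 lower, and the glutathione list 8 of 17 higher and 6 lower. The secreted enzymes Gpx3, a plasma glutathione peroxidase, and Sod3, the extracellular superoxide dismutase, were much lower in the neutrophil-like cells, at 420.4 against 2.94 CPM and 229 against 1.69 CPM. Slc3a2, whose product is the heavy chain that partners the Slc7a11 protein, was higher in the stromal-like cells at 548 against 191 CPM, opposite to Slc7a11 itself. Txnip, which encodes an inhibitor of thioredoxin, stood at 36.7 against 458 CPM, Prdx5 at 319.7 against 2217 CPM, and the microsomal glutathione transferase Mgst1 at 15.5 against 831 CPM.

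Most of the genes that supply NADPH were higher in the neutrophil-like cells. Of the 6 NADPH genes, 5 were 2-fold or more lower and 1 higher in the stromal-like cells, against the 19.5% and 52.4% of all genes given above, with Pgd at 129 against 696 CPM, Tkt at 110.2 against 376 CPM and Taldo1 at 311 against 1027 CPM. These encode enzymes of the pentose phosphate pathway. In the heme, quinone and iron list 4 of 8 genes were lower and 1 higher. The ferritin genes Fth1 and Ftl1 stood at 18078 against 42902 CPM and 1663 against 10012 CPM, and Slc40a1, which encodes the iron exporter ferroportin, at 8.22 against 407 CPM. Among the NRF2 regulators, 3 of 9 were higher and 2 lower, the latter close to the background of 19.5%. Bach1, the repressor, stood at 33.4 against 238 CPM, and Sqstm1, whose product p62 binds KEAP1, at 1139 against 265 CPM.

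**Figure D4:**
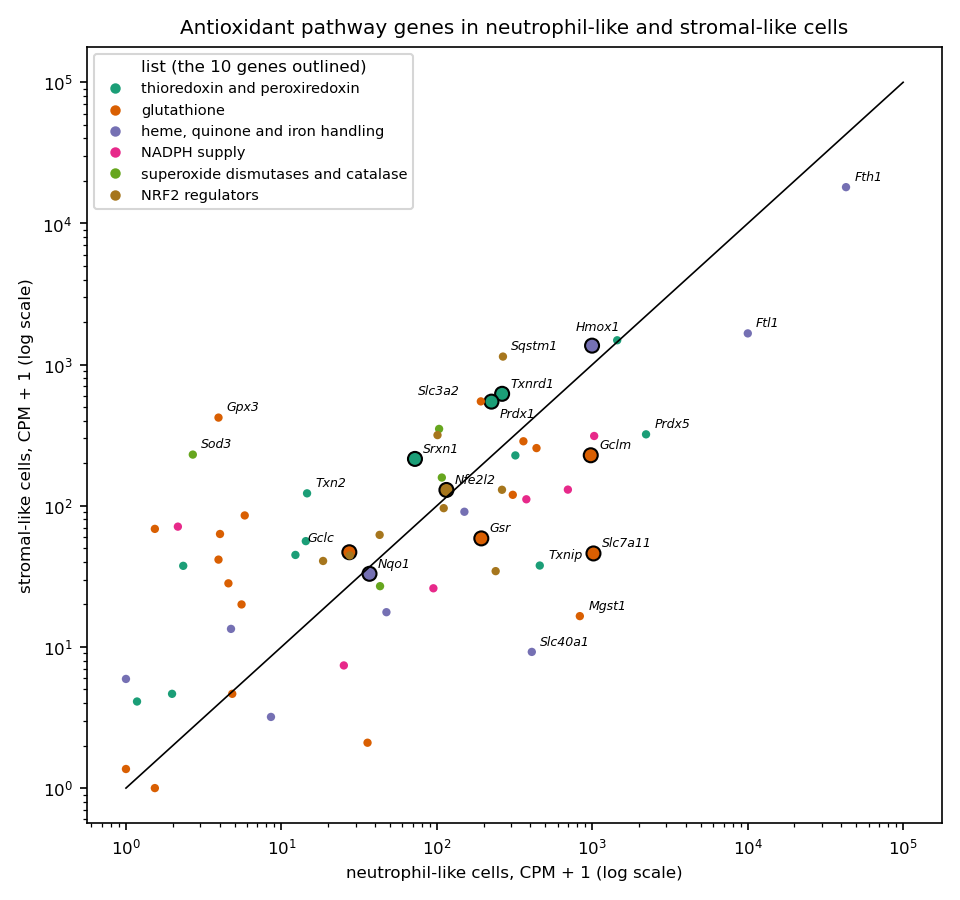
CPM + 1 in neutrophil-like cells (x axis, log scale) and in stromal-like cells (y axis, log scale) for the 10 genes (outlined) and the other genes of the 6 lists, colored by list. Each point is 1 gene and the line marks equal levels. Slc7a11, Mgst1, Slc40a1 and Txnip lie below the line, while Gpx3 and Sod3 lie above it.

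Across the neutrophil-like clusters, 36 of the 52 further genes were at 10 CPM or more in cycling or Ccl4-high cells, and 16 were 2-fold or more higher and 9 lower in the Ccl4-high cells, compared with 18.8% and 33.3% of all genes at 10 CPM and 35.8% and 20.7% of all genes at 100 CPM. Slc40a1 stood at 717 against 79.1 CPM, Bach1 at 370.1 against 65.4 CPM, Fth1 at 66539 against 13731 CPM and Mgst1 at 1038 against 249 CPM, and Gpx1, a cytosolic glutathione peroxidase, went the other way at 179 against 437 CPM. Between OVX and sham neutrophil-like cells, 34 further genes were at 10 CPM or more, of which 3 were 1.5-fold or more higher and 2 lower in the OVX pool, close to the 6.90% and 8.04% of all genes. The higher genes were Sod2, the mitochondrial superoxide dismutase, at 129.9 and 66.6 CPM, Blvrb, a biliverdin reductase, at 186 and 105 CPM, and Prdx2, at 13.7 and 7.94 CPM. Among the neutrophil-like clusters, Sod2 and Blvrb were highest in the stefin-high cluster, which held 552 OVX and 55 sham cells. There Sod2 stood at 141 CPM, against 45.5 to 125 CPM in the other neutrophil-like clusters, and Blvrb at 230 CPM against 54.2 to 141 CPM. Whether the make-up of the pools bears on the OVX and sham levels of these genes was not tested. The lower genes were Txn2, the mitochondrial thioredoxin, at 10.7 and 18.0 CPM, and Prdx3, at 10.2 and 17.8 CPM. Prdx2 and Prdx3 fell outside the rule for naming genes and are named after their values were seen. In cycling, granule-rich, stefin-high and Ccl4-high cells, 0, 0, 2 and 2 genes of the heme, quinone and iron list were 1.5-fold or more higher in OVX. In the same order 3, 2, 2 and 1 were lower, of 8, 8, 8 and 7 genes at 10 CPM or more. The superoxide dismutase and catalase list had 3 genes at that level in each cluster. Of these, 0, 1, 2 and 1 were higher and 1, 0, 0 and 0 lower. Among all genes 13.3%, 15.5%, 25.6% and 21.2% were higher and 19.5%, 13.4%, 15.1% and 9.58% lower.

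Over the 12 groups of 6 clusters by 2 conditions, Txnrd1 and Srxn1 were each other's nearest gene among 6945 genes, with a Pearson correlation of log2(CPM + 1) of 0.97. Slc7a11 was nearest to Tlr4, Atp6v1b2 and Slc6a6 (0.99 or more), and Gclm to Taldo1, Tlr6 and Slc6a6 (0.96 to 0.97). Among the 10 genes themselves, Gclm and Slc7a11 correlated at 0.95, Gsr and Slc7a11 at 0.93 and Gclm and Gsr at 0.89, and Hmox1 with Txnrd1 at 0.82. Hmox1 was nearest to Cog1, Rab14 and Tomm22 (0.91 to 0.92), Prdx1 to Vps29, Srp9 and Pgk1 (0.95 to 0.97), and Nfe2l2 to Mbnl2, Acot2 and Ube2h (0.93 to 0.95). Gsr was nearest to Tmem80, Ankrd66 and Por (0.94 to 0.95), Nqo1 to Ralgapa1, Wdfy1 and Hacd2 (0.86 to 0.91) and Gclc to Mfsd5, Lamp1 and Sdhd (0.90 to 0.93). These are descriptions over groups that share 1 library and its scaling, in which the stromal-like groups differ most from the others.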

How the data were processed

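Reads were mapped by the authors to the mouse genome mm10 (GRCm38) by Cell Ranger, version 6.0.1 per the labels and 6.0.0 per the file header. The deposited values are raw UMI counts of genes and of both hashtags for the barcodes called as cells. The sample that holds the hashtag reads alone was not analysed here. Hashtags were called with HTODemux after a centred log ratio (Seurat 5.3.0, R 4.3.3, positive quantile 0.99). All barcodes entered the clustering in scanpy 1.11.5 (Python 3.11.15, igraph 0.11.9), using log values of counts brought to 10000 per cell, 2000 variable genes, 30 components, 15 neighbors and the lowest Louvain resolution giving 6 clusters of at least 10 cells. The 10 genes and the pathway lists were left out of the variable genes. Doublets were treated by leaving barcodes above both hashtag cutoffs out of comparisons of OVX with sham, and no doublet caller was run.

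Summed UMIs were scaled to 1000000 (CPM), and ratios (fold) were computed from the deposited counts, with exact 95% Poisson, conditional binomial and Clopper-Pearson intervals. No p-value or standard error was made, since each condition was a single pool. Backgrounds are shares of genes at 10 CPM or more in either group past 2-fold, or 1.5-fold for OVX against sham. Thinning used a fixed seed. The ratios and intervals were tested on simulated independent Poisson counts, which do not hold the clumping of UMIs in a few cells. Named were the 10 genes, pathway genes at 100 CPM or more in stromal-like or neutrophil-like cells or 2-fold different between OVX and sham neutrophil-like cells, the 3 genes most like each of the 10, and fixed markers. The 10 genes and all lists were chosen with earlier results of these data known. Alternatives were equal weight per cell, median-of-ratios scaling, a barcode filter (500 genes or more, mitochondrial UMIs of 10% or less), removal of barcodes above both hashtag cutoffs, pathway genes allowed in the clustering, 8 clusters, Leiden clustering (leidenalg 0.10.2), the hashtag share rule (at least 80% of at least 10 hashtag UMIs), each cluster alone, a 100 CPM minimum, and thinning to 500 UMIs. Positions of genes are those of GENCODE for GRCm38.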

Additional observations from a re-analysis of the deposited data

Results flagged for a closer look

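For 4 genes the ratio of OVX to sham pointed in opposite directions in different cells, with counting intervals on opposite sides of 1 in each pair. The cells compared were the stromal-like, all neutrophil-like and Arg1-high cells and the 4 neutrophil-like clusters. These differences were not tested, because there was 1 pool of mice per condition, and their cause was not tested either. The share of all genes that meet this rule was not counted, so the number 4 is no result about the 10 genes. The median log2 ratio of all genes was 0.12 in stefin-high and in Ccl4-high cells, -0.11 in cycling and -0.02 in Arg1-high cells. Prdx1, a peroxiredoxin, had a ratio of 1.16 in neutrophil-like cells and 0.699 in stromal-like cells, and among the neutrophil-like clusters 1.54 in Ccl4-high and 0.547 in cycling cells. It was 0.420 in Arg1-high cells. The log2 ratio of Prdx1 in neutrophil-like cells, 0.21, became -0.35 with pathway genes allowed in the clustering and -0.04 with clusters weighted equally, so its direction there depended on the processing. Gclm, the modifier subunit of glutamate-cysteine ligase, had 1.07 in neutrophil-like and 0.775 in stromal-like cells, and 1.36 in stefin-high and 0.610 in cycling cells. Slc7a11, the cystine transporter, had 1.30 in stefin-high, 0.693 in cycling and 0.772 in Arg1-high cells. Gsr, glutathione reductase, had 1.38 (1.05 to 1.84) in stefin-high, 1.33 (1.09 to 1.63) in granule-rich and 0.587 (0.396 to 0.848) in Arg1-high cells. The stefin-high ratios rest on 55 sham cells, the cycling ratios on 82 OVX and 62 sham cells, and the Arg1-high ratios on 21 OVX and 53 sham cells.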

How the results depend on the processing

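The same 210 stromal-like cells were found by each of the other clusterings of all barcodes, and Slc7a11, Gclm and Gsr stayed lower and Txnrd1, Srxn1 and Prdx1 higher in them than in neutrophil-like cells in 7 of 7 alternatives. With median-of-ratios scaling, 0 genes instead of 3 were 2-fold higher and 4 instead of 3 lower (Nqo1 added) in stromal-like cells, and 4 instead of 7 were higher and 2 instead of 0 lower in Ccl4-high than in cycling cells. That scaling shifts all genes alike within a comparison. The number lower in Ccl4-high cells was 1 with the barcode filter, without barcodes above both hashtag cutoffs, with pathway genes allowed, with 8 clusters and with Leiden clustering. For OVX against sham neutrophil-like cells at 1.5-fold, 5 genes were lower within the cycling cluster and 1 within each of the granule-rich, stefin-high and Ccl4-high clusters (2 in all neutrophil-like cells), and 1 was higher within the Ccl4-high cluster (0 in all). Among all genes 19.5%, 13.4%, 15.1% and 9.58% were lower in these 4 clusters in this order, and 21.2% were higher in the Ccl4-high cluster. In stromal-like cells 1 gene was higher and 2 lower with each cell weighted equally, and 0 were lower with the hashtag share rule, against 0 and 1. Under the share rule Txnrd1 fell just short of 1.5-fold lower, at a log2 ratio of -0.581. Shares of all genes were not counted under the other scalings, clusterings, barcode filters and hashtag rule. Apart from the difference in scaling or in the cells included, the cause was not tested. No paired analysis was possible because each condition was 1 pool in 1 library. Depth limits Nqo1 and Gclc, which had 8 to 110 UMIs in each OVX or sham group of every neutrophil-like cluster. The share of cells with a UMI was larger in the stromal-like cells for 7 of 10 genes at full depth, for 6 after thinning to 1000 UMIs and for 5 at 500 UMIs.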
